A study of Mus musculus with 9 samples.

Results

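The comparison described here set hippocampal miRNA levels of C57BL/6J mice given lipopolysaccharide (LPS) and gastrodin (GAS) against those of mice given saline, and asked which miRNA families stayed at the saline level and which did not. The 6 libraries were those labelled as saline (replicates 1 to 3) and as LPS + GAS (replicates 1 to 3), out of 9 in the series. Of the 1448 mature miRNAs in the deposited table, 628 reached a minimum of 10 reads in 3 or more of all 9 libraries, and these are the miRNAs described. Saline mice received 0.9% saline. LPS + GAS mice received a single intraperitoneal dose of LPS, a bacterial endotoxin, at 1 mg/kg, and GAS, a phenolic glucoside of the orchid Gastrodia elata, at 100 mg/kg, which the labels place 1 h after LPS. The methods name male mice, and they also have GAS given together with LPS, so the sources leave the order of the injections unsettled. The LPS mice without GAS, labelled with 0.12% saline, entered the fit for its estimate of the spread and are quoted only beside a result. Both agents separate LPS + GAS from saline and no group received GAS alone, so an effect of LPS and an effect of GAS cannot be told apart in this comparison. Each group has 3 libraries labelled as separate samples, and no source used here says whether animals were pooled, so p-values measure the spread between these libraries.

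A miRNA is cut from a hairpin precursor as a duplex, from which usually a single strand (the 5p or the 3p arm) is kept in the Argonaute protein and the other is degraded. The kept strand finds its target mRNAs mainly through its seed, bases 2 to 8 from the 5′ end, so miRNAs with the same seed form a family with overlapping targets. Several families are known for an inflammatory response, among them miR-155 and miR-146, which are induced through NF-κB, and miR-21, induced through STAT3 and AP-1. Others mark cell types that a piece of hippocampus can hold, such as neurons (miR-124, miR-9), choroid plexus epithelium (miR-204, miR-448) and red blood cells (miR-451a).

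The sequences on which the results turn are given 5′ to 3′ with the seed in capitals. They come from RefSeq on GRCm38.p6, where 1221 of the deposited names were found and all 1221 had the deposited mature sequence. Both arms of the miR-21a precursor are shown first because the ratio between them was the 1 arm ratio called. They lie on the minus strand of chromosome 11 in an exon of Vmp1, chr11:86584082-86584103 for the 3p arm and chr11:86584120-86584141 for the 5p arm.
miR-21a-3p: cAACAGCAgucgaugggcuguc
miR-21a-5p: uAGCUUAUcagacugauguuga

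Next are the other 4 miRNAs whose levels are plotted by library, chosen among those with an unadjusted p under 0.05 after their values were seen. MiR-155-5p lies in an exon of the long RNA Mir155hg (chr16:84714143-84714165, plus strand), and miR-7b-3p (chr17:56243055-56243076, plus strand) lies in no annotated host gene. MiR-541-3p (chr12:109742466-109742487) lies in an intron of Mirg, and miR-337-3p (chr12:109585850-109585871) in the same imprinted domain, both on the plus strand. All 4 seeds differ.
miR-7b-3p: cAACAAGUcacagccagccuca
miR-155-5p: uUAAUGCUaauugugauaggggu
miR-541-3p: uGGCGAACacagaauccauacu
miR-337-3p: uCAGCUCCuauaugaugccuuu

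Members of the families and cell type lists described further on are shown next, by shared seed where there is one. Let-7c-5p and miR-98-5p share GAGGUAG. MiR-204-5p, in an intron of Trpm3, and miR-211-5p, in an intron of Trpm1, share UCCCUUU and have the same base at 21 of 22 positions. MiR-34b-5p and miR-449a-5p share GGCAGUG. MiR-451a and miR-144-3p, which come from neighbouring hairpins on chromosome 11, have different seeds.
let-7c-5p: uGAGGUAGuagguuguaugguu
miR-98-5p: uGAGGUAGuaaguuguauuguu
miR-204-5p: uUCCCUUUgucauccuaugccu
miR-211-5p: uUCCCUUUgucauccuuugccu
miR-34b-5p: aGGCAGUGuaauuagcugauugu
miR-449a-5p: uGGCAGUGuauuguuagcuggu
miR-451a: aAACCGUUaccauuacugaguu
miR-144-3p: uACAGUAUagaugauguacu

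The 9 libraries held 10119758 to 11457656 reads on miRNAs, 1008 to 1046 miRNAs had at least 1 read in a library, and the 10 most abundant took 55.0% to 58.5% of the reads. Levels are given as reads or as CPM, reads for each 1e+06 of a library's TMM-scaled total, with the SD over 3 libraries, and differences as the log2 of the LPS + GAS level over the saline level. The test was edgeR's quasi-likelihood test, with p adjusted by the Benjamini-Hochberg method over the 628 miRNAs. Calling a miRNA took an adjusted p no higher than 0.05 together with a change of 2-fold or more in either direction. Because a p that misses the threshold does not show equal levels, a miRNA was described as within 2-fold of saline only where the whole 95% interval of its log2 fold change lay between −1 and 1. Saline replicate 1, LPS replicate 1 and LPS + GAS replicates 1 and 3 stood apart by high choroid plexus and ciliated cell miRNAs. Results that rest on these libraries are given with and without them. Because the libraries were picked by these same miRNAs, values of these miRNAs without them follow partly from that choice and are no independent check.

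Most hippocampal miRNAs of LPS + GAS mice were within 2-fold of saline, and 1 miRNA rose past the threshold. This held for 405 of 628 miRNAs (64.5%), which together took 95.1% of the saline reads and 93.4% of the LPS + GAS reads. Precision followed abundance. Of the 185 miRNAs with a mean of at least 100 CPM, 160 (86.5%) were within 2-fold, against 245 of 443 (55.3%) below 100 CPM. The median log2 fold change over all 628 was −0.03 with a median standard error of 0.28, and 277 values were above 0 and 351 below.

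By edgeR's quasi-likelihood test, 1 of 628 miRNAs (0.159%) was called, miR-21a-3p. At an unadjusted p under 0.05 there were 21 (3.34%), 9 higher and 12 lower, where 31.4 would be reached by chance alone. All 3 LPS + GAS libraries lay above the highest saline library for 16 miRNAs (2.55%) and below the lowest for 30 (4.78%). Among the miRNAs not within 2-fold, 205 had an interval that also held 0, so for these neither a difference nor a level near saline was shown.

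**Figure D1:**
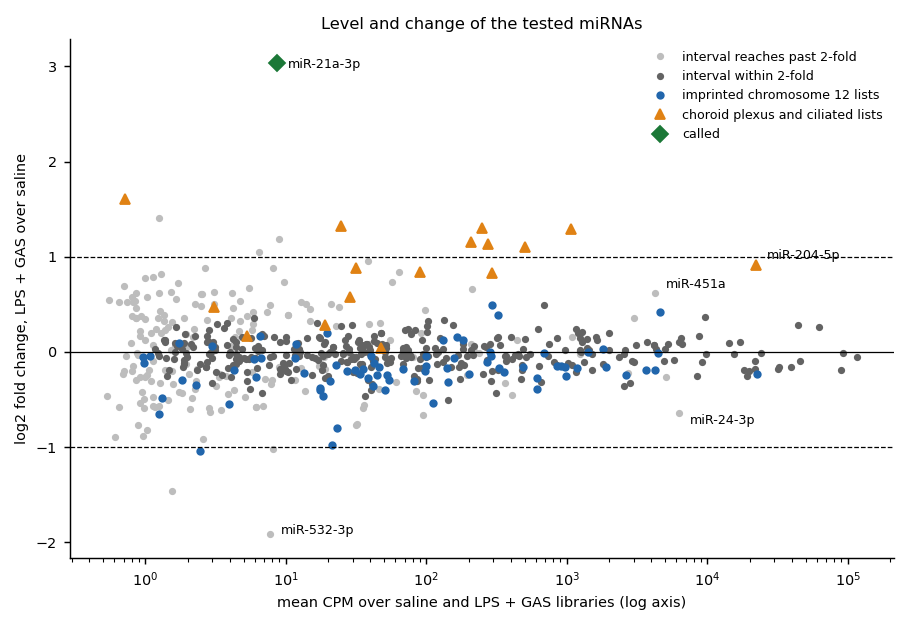
Mean CPM over the saline and LPS + GAS libraries (x axis, log scale) against the log2 fold change of LPS + GAS over saline (y axis) for 628 miRNAs, with dashed lines at 2-fold. Dark grey points have a 95% interval within 2-fold, light grey points do not, and blue points, orange triangles and the green diamond mark the imprinted chromosome 12 lists, the choroid plexus and ciliated cell lists and the called miRNA. MiR-21a-3p stands at 3.04, above all other points, and the spread of the grey points narrows to the right.

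MiR-21a-3p, the arm of the miR-21a hairpin that is usually degraded, counted 21, 24 and 15 reads in saline and 224, 154 and 105 in LPS + GAS. All LPS + GAS libraries stood far above all saline libraries, and the LPS libraries lay between with 57, 71 and 71 reads. The level was 1.88 ± 0.324 CPM (SD, n = 3) in saline and 15.5 ± 5.40 CPM in LPS + GAS, an 8.20-fold increase with a log2 fold change of 3.04 (standard error 0.30, 95% interval 2.37 to 3.70, edgeR adjusted p = 0.00151). Over all alternatives its log2 fold change ranged from 2.82 to 3.33 and its adjusted p from 3.78e-14 to 0.0331.

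MiR-21a-5p, the arm that is usually kept, stayed within 2-fold. It counted 15919, 15776 and 7883 reads in saline and 16780, 13176 and 11372 in LPS + GAS. The groups overlapped. The log2 fold change was 0.11 with a 95% interval of −0.54 to 0.75.

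The arm ratio of miR-21a was higher in every LPS + GAS library than in every saline library. The number of 3p reads for each 5p read, with 0.5 added to both, was 0.00135, 0.00155 and 0.00197 in saline replicates 1 to 3 and 0.0134, 0.0117 and 0.00928 in LPS + GAS replicates 1 to 3. The 3p arm thus remained a small share of the precursor's reads in every library. The log2 ratio rose by 2.82 (standard error 0.28, 95% interval 2.18 to 3.46, adjusted p = 0.000826 by limma over 220 precursors with both arms tested). A ratio of arms does not depend on how libraries were scaled. It was the only one of 220 ratios called (0.455%), with 11 at an unadjusted p under 0.05, and 124 ratios (56.4%) were within 2-fold of saline.

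The other arm ratios with the lowest p had an adjusted p of 0.819 by limma. The ratio of miR-3086-3p to miR-3086-5p was lower by a log2 difference of −1.08, and that of miR-322-3p to miR-322-5p higher by 1.16. The ratio of miR-92a-3p to miR-92a-1-5p was −1.34 on the same scale and that of miR-26a-1-3p to miR-26a-5p was 0.66. The ratio of miR-7b-3p to miR-7b-5p stood at 0.74. None passed the threshold.

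**Figure D2:**
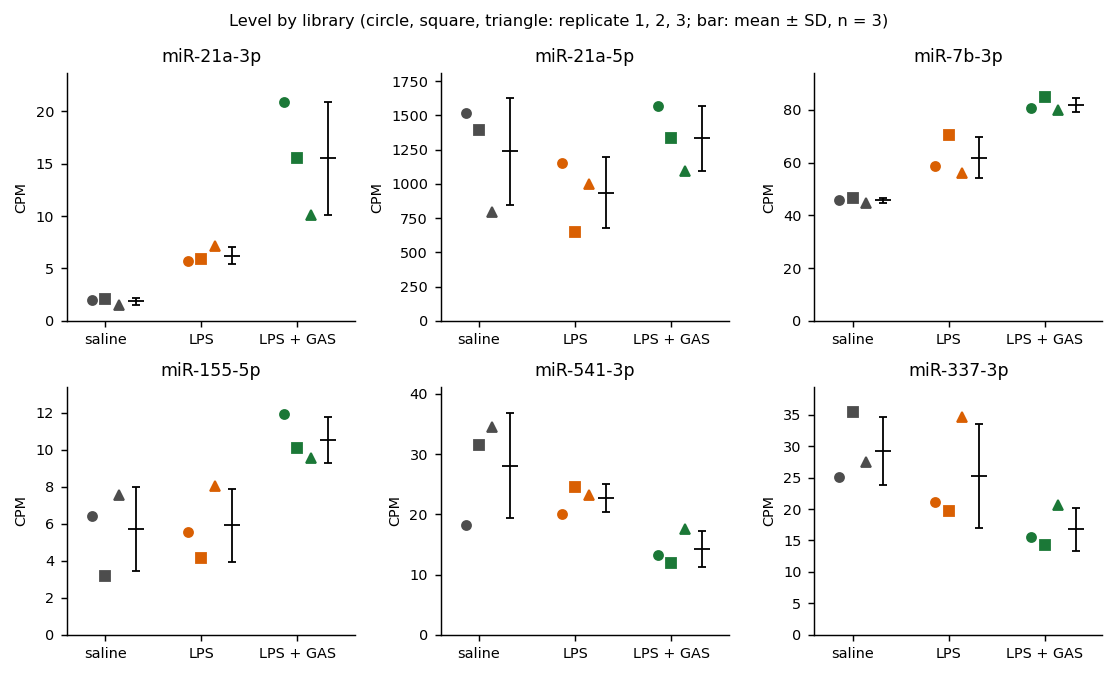
CPM (y axis, from 0) of 6 miRNAs in each of the 9 libraries, with circle, square and triangle for replicates 1, 2 and 3 and a bar for the mean ± SD (n = 3). For miR-21a-3p the LPS + GAS libraries lie above all saline libraries at a mean of 15.5 against 1.88 CPM, for miR-21a-5p the groups overlap, and for miR-541-3p and miR-337-3p all LPS + GAS libraries lie below all saline libraries.

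Among the miRNAs known for inflammation, miR-155-5p, which is transcribed from the host gene Mir155hg in activated immune cells, did not pass the threshold. It counted 67, 36 and 75 reads in saline, 128, 100 and 99 in LPS + GAS and 56, 50 and 80 in LPS. All LPS + GAS libraries were above all saline libraries. The log2 fold change was 0.88 (95% interval 0.12 to 1.65, edgeR adjusted p = 0.998).

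The miR-146 pair, feedback inhibitors of NF-κB signalling through Traf6 and Irak1, stayed within 2-fold. MiR-146a-5p had 5071, 3857 and 3152 reads in saline and 4290, 4570 and 4244 in LPS + GAS, a log2 fold change of 0.15 (95% interval −0.33 to 0.64). MiR-146b-5p had a log2 fold change of 0.02 (95% interval −0.34 to 0.38). MiR-222-3p, from a cluster also under NF-κB control, stood at −0.02 (95% interval −0.42 to 0.38), and all 3 tested members of the miR-221 and miR-222 list were within 2-fold.

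Leukocyte and microglial miRNAs gave no call. Of 5 tested members of the miR-142, miR-150 and miR-223 list, 1 was within 2-fold, miR-150-5p, known from lymphocytes, at −0.10 (95% interval −0.76 to 0.56). It held nearly all of the list's sum, 5288 of 5328 CPM in saline replicate 1 and 5548 of 5598 CPM in LPS + GAS replicate 1. Which cells of the tissue the miR-150-5p reads came from was not tested. Its other arm, miR-150-3p, had 29, 17 and 25 reads in saline and 5, 15 and 5 in LPS + GAS, with a log2 fold change of −1.46 (adjusted p = 0.998 by edgeR). Without LPS + GAS replicate 2 this was −2.22, without the 4 libraries that stood apart −0.40, and its groups overlapped in CPM. MiR-223-3p, of neutrophils and other myeloid cells, had 116, 78 and 40 reads in saline against 161, 73 and 147 in LPS + GAS, and miR-142a-3p had 156, 166 and 98 against 208, 116 and 190. In bulk tissue, fewer cells of a type and less RNA per cell cannot be told apart.

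When reads were summed over all miRNAs with the same seed, 522 families were tested and 1 was called (0.192%), the family of miR-21a-3p, which has no other tested member. At an unadjusted p under 0.05 there were 19. Of the 522 families, 334 (64%) were within 2-fold of saline. Among the 69 families with at least 2 tested members 54 were within 2-fold, and 2 had an unadjusted p under 0.05, miR-10a-5p with miR-10b-5p at a log2 fold change of 0.80 and miR-1983 with miR-412-3p at −0.39. The 50 most abundant families held about 95% of the reads, and 45 of them were within 2-fold, with log2 fold changes between −0.25 and 0.39. For 28 of the 50 the interval lay even within 1.5-fold.

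**Figure D3:**
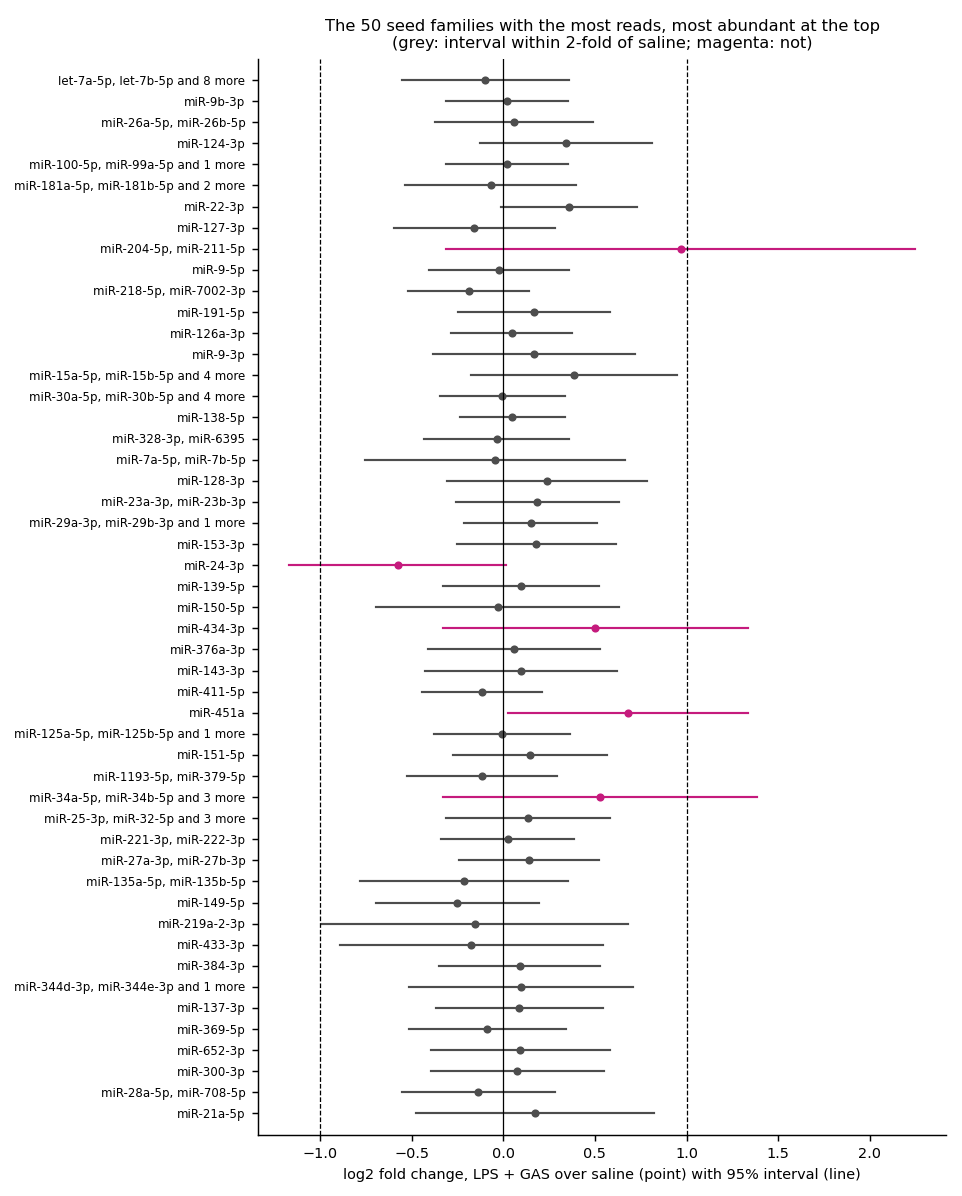
Log2 fold change of LPS + GAS over saline (x axis, point) with its 95% interval (line) for the 50 seed families with the most reads, the most abundant at the top, labelled by their leading members. The 45 families in grey lie within the dashed lines at 2-fold, and the 5 in magenta, led by miR-204-5p, miR-24-3p, miR-434-3p, miR-451a and miR-34a-5p, reach past them.

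The let-7 family, abundant in differentiated cells, was the largest and stayed at the saline level. Summed over 10 members with the seed GAGGUAG it had 3212572, 2213815 and 2824862 reads in saline and 2370897, 2269895 and 2604253 in LPS + GAS. The saline libraries spread more widely than the LPS + GAS libraries and enclosed them in CPM. The log2 fold change of the family was −0.10 (95% interval −0.55 to 0.36).

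Its most abundant member, let-7c-5p, stood at −0.19 (95% interval −0.66 to 0.29). Of 19 tested rows in the let-7 and miR-98 list, 18 were within 2-fold and the median log2 fold change was −0.13, or 0.03 without saline replicate 1. The exception was miR-98-3p, the minor arm of the miR-98 hairpin in an intron of Huwe1, with 41, 51 and 41 reads in saline and 30, 20 and 35 in LPS + GAS. Its log2 fold change was −0.61 (95% interval −1.15 to −0.07, adjusted p = 0.998 by edgeR).

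Neuronal miRNAs were among the most abundant, as the labelled tissue requires, and stayed mostly within 2-fold. Of 23 tested members of the miR-124, miR-9, miR-128 to miR-218 and miR-132 lists, 18 (78.3%) were within 2-fold, against 64.5% over all miRNAs, and 0 had an unadjusted p under 0.05 by edgeR. The share follows precision. It was 86.5% for miRNAs of at least 100 CPM, and the median standard error was 0.21 in these lists against 0.28 over all. MiR-124-3p, the neuron-specific miRNA, had 435825, 690056 and 678164 reads in saline and 633673, 806293 and 675063 in LPS + GAS. The groups overlapped and the log2 fold change was 0.27 (95% interval −0.20 to 0.73).

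MiR-212-3p, from the cluster that CREB induces with neuronal activity, stood at −0.03 (95% interval −0.44 to 0.39), and miR-218-5p, enriched in neurons, at −0.26 (95% interval −0.60 to 0.09). The row with the most reads in the miR-9 list was miR-9b-3p, with 118070 ± 13412 CPM in saline, 114000 ± 10609 CPM in LPS + GAS and a log2 fold change of −0.05. It is the exact complement of 21 bases of miR-9-5p and lies on the opposite strand at all 3 miR-9 loci, and no source used here says whether the authors' counting used strand. MiR-9-5p itself had 22638 ± 3579 CPM in saline and 21164 ± 2338 CPM in LPS + GAS.

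Lists in which every tested member was within 2-fold were miR-124, miR-9, miR-30, miR-181, miR-125 with miR-99 and miR-100, and miR-221 with miR-222, which makes 6 of 32 lists. All 11 members of miR-30 had log2 fold changes between −0.20 and 0.17. The 7 members of miR-181, known from brain and lymphocytes, lay between −0.19 and 0.15, and the 11 members of the miR-125, miR-99 and miR-100 list, neighbours of let-7 genes, between −0.10 and 0.17.

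MiR-26a-5p stood at −0.01 (95% interval −0.44 to 0.41), miR-29a-3p, a repressor of collagen mRNAs, at 0.08 (95% interval −0.34 to 0.49), and miR-126a-3p of endothelium at −0.02 (95% interval −0.34 to 0.30). In the vascular list of miR-126, miR-143 and miR-145, 4 of 5 members were within 2-fold. Of broadly expressed families, 12 of 16 members of the miR-17-92 list, 9 of 11 of the miR-15, miR-16 and miR-322 list, 6 of 7 of miR-29 and 4 of 5 of miR-26 were within 2-fold, with medians between 0.03 and 0.15. Of the miR-135 list 1 of 4 was, miR-135a-5p at −0.36 (95% interval −0.90 to 0.17), with a list median of 0.26. Oligodendrocyte miR-219a-2-3p had a log2 fold change of −0.22 with an interval of −1.05 to 0.60, so its list, with 2 of 5 members within 2-fold, was less tightly measured.

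**Figure D4:**
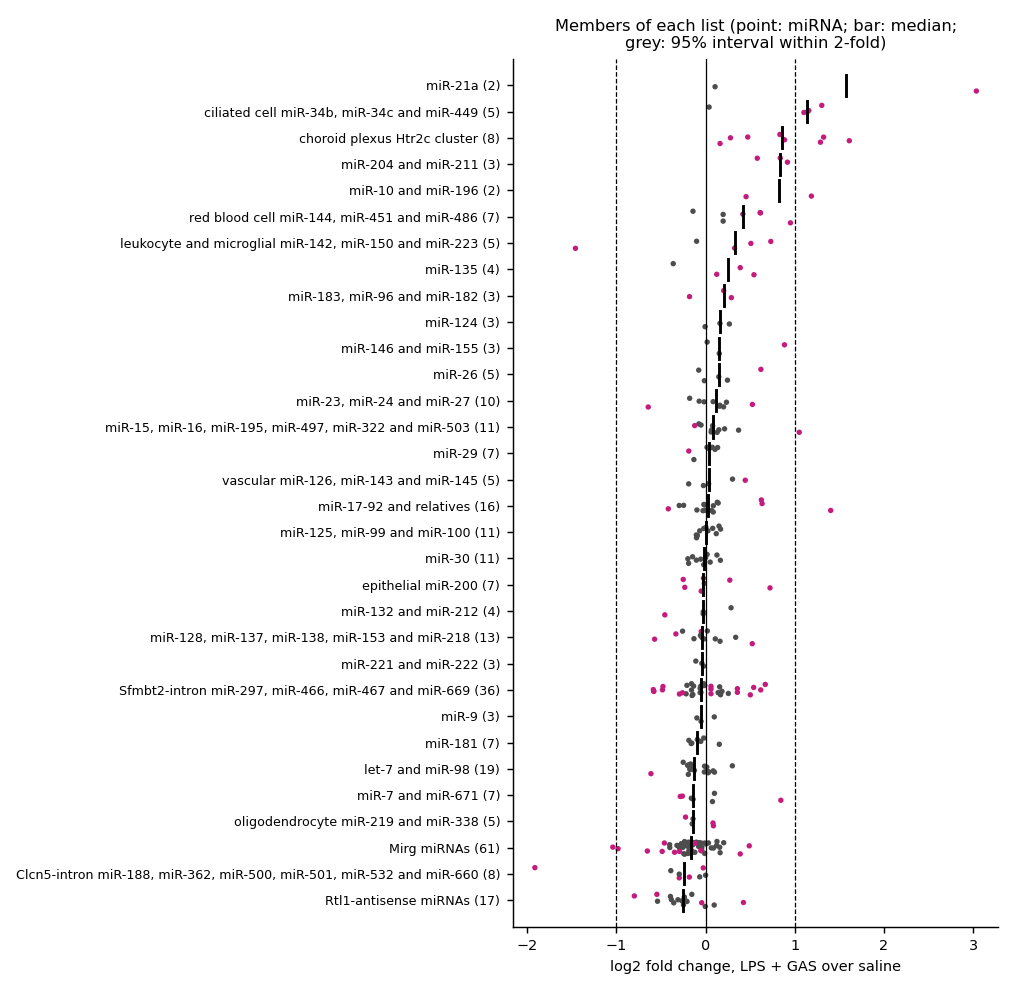
Log2 fold change of LPS + GAS over saline (x axis) for each tested member (point) of 32 lists (rows, number tested in brackets), grey where the 95% interval lies within 2-fold of saline and magenta where it does not, with a bar at the median. Medians of 25 lists lie within 0.3 of 0, and the upper rows with medians past 0.5 are miR-21a, the ciliated cell, choroid plexus and miR-204 lists and miR-10 with miR-196.

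No tested member was within 2-fold in 5 lists, and 2 of these, together with the list of ciliated cells, mark the ventricle lining. The choroid plexus list of miRNAs from introns of the serotonin receptor gene Htr2c had 8 tested members, all with a log2 fold change above 0 and a median of 0.86. Its summed level was 2085, 264 and 327 CPM in saline, 3860, 174 and 1951 CPM in LPS + GAS and 1091, 426 and 154 CPM in LPS. The level was high in saline replicate 1 and in LPS + GAS replicates 1 and 3 and lowest of these 6 in LPS + GAS replicate 2, so that the groups overlapped.

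The most abundant member, miR-1298-5p, reached 619 ± 822 CPM in saline and 1511 ± 1478 CPM in LPS + GAS, with SDs about as large as the means. Its log2 fold change of 1.29 had a 95% interval of −1.46 to 4.04, and it was 0.28 without LPS + GAS replicate 1, 3.42 without saline replicate 1 and −0.47 without the 4 libraries that stood apart. The same libraries were high for miR-448-3p, with 381, 34 and 27 reads in saline and 725, 16 and 375 in LPS + GAS. None of the 8 had an unadjusted p under 0.05 by edgeR, beside 3.34% of all miRNAs.

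MiR-204-5p and miR-211-5p, of choroid plexus and pigment epithelium, were high in the same libraries. MiR-204-5p had 281530, 101703 and 102438 reads in saline and 556435, 115129 and 246242 in LPS + GAS, with a log2 fold change of 0.92 (95% interval −0.40 to 2.24, adjusted p = 0.998 by edgeR). Each LPS + GAS library was above the saline library of the same number, although no source gives libraries of the same number as pairs. For the Htr2c list this failed in replicate 2, with 174 CPM in LPS + GAS against 264 CPM in saline. A fit with the number as a block gave miR-204-5p 0.87 (edgeR adjusted p = 0.645). Without LPS + GAS replicate 1 its log2 fold change was 0.24, without saline replicate 1 it was 1.63, and without the 4 libraries that stood apart it was 0.26. The family sum gave 0.97 (95% interval −0.31 to 2.25), the widest interval among the 10 most abundant families.

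In the list of multiciliated cells, which line the ventricles as ependyma, miR-34b-3p had 6360, 1329 and 2390 reads in saline and 14429, 1611 and 5859 in LPS + GAS. Its log2 fold change was 1.10 (95% interval −0.57 to 2.77), or 0.21 without LPS + GAS replicate 1, 1.99 without saline replicate 1 and −0.15 without the 4 libraries that stood apart. Each LPS + GAS library was again above the saline library of the same number, which no source gives as its pair. MiR-34c-3p from the same transcript stood at 1.30 (95% interval −0.48 to 3.09). MiR-449a-5p, which has the seed of miR-34b-5p but its own hairpin in an intron of Cdc20b, was the only member within 2-fold, at 0.04 (95% interval −0.41 to 0.49).

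The medians of these 3 lists rested on few libraries. Without LPS + GAS replicate 1 the median log2 fold change fell to 0.14 for the choroid plexus list, 0.24 for miR-204 and miR-211 and 0.27 for the ciliated cell list. Without saline replicate 1 they were 1.73, 1.52 and 2.44. Taking out saline replicate 1, LPS replicate 1 and LPS + GAS replicates 1 and 3 together left a single LPS + GAS library. There the choroid plexus median turned to −1.08 and the other medians were 0.34 and 0.13. The libraries taken out were picked by high levels of these same lists. The LPS + GAS library left, replicate 2, was the lowest of its group in all 3, so this fall is no independent check. How much ventricle lining each dissected piece held was not tested.

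**Figure D5:**
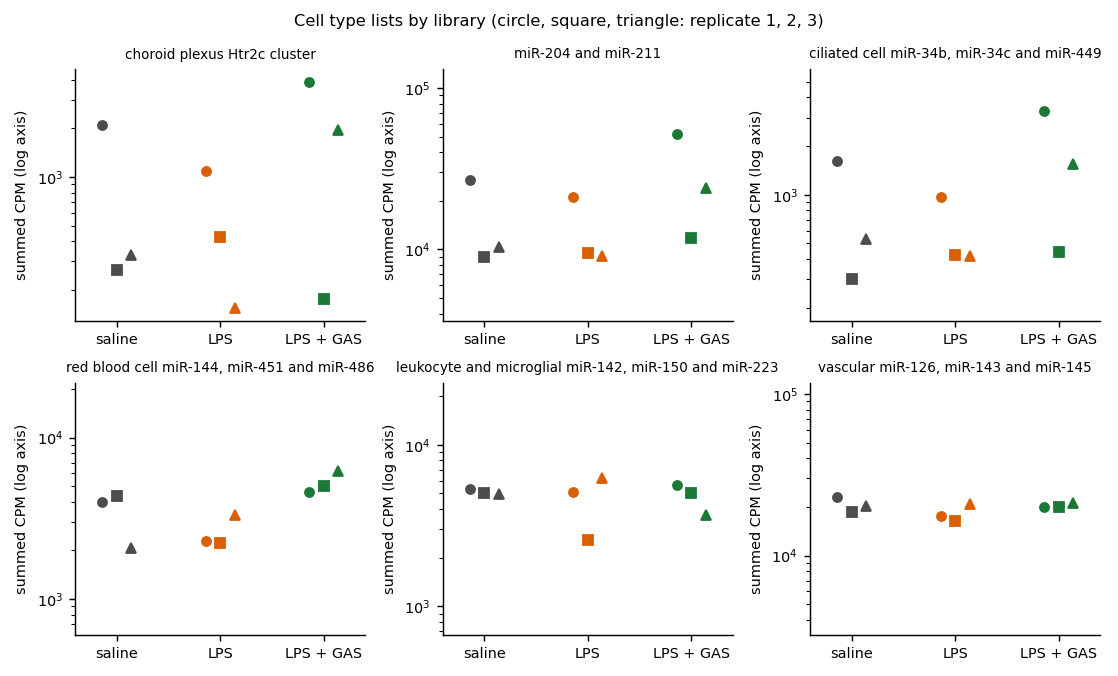
Summed CPM (y axis, log scale spanning the same fold in each panel) of the tested members of 6 cell type lists in each library, with circle, square and triangle for replicates 1, 2 and 3 of each group. Replicate 1 is highest in each group for the upper 3 lists and LPS + GAS replicate 2 lies near the saline replicates 2 and 3, whereas the vascular list is nearly level at 16420 to 22912 CPM.

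Red blood cell miRNAs were not within 2-fold for 4 of 7 members. MiR-451a, which is processed by Argonaute 2 and is among the most abundant miRNAs of red cells, had 40522, 47243 and 19502 reads in saline, 47427, 48110 and 62796 in LPS + GAS and 22074, 25222 and 31548 in LPS. In CPM all LPS + GAS libraries were above all saline libraries, by a small margin over saline replicate 2. The log2 fold change was 0.62 (95% interval −0.03 to 1.26, adjusted p = 0.998 by edgeR), or 0.35 without saline replicate 3.

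MiR-144-3p from the same cluster had 26.1 ± 9.63 CPM in saline and 50.5 ± 21.2 CPM in LPS + GAS, with a log2 fold change of 0.95 (95% interval 0.01 to 1.90) and an overlap between groups. Although its interval just left out 0, no member of this list had an unadjusted p under 0.05 by edgeR. MiR-486a-5p, another erythroid miRNA whose reads cannot be divided from those of the identical miR-486b-5p, stood at 0.20 (95% interval −0.30 to 0.69). The median of the list was 0.42, which became 0.16 without saline replicate 3, the lowest of the 6 libraries, 0.73 at the highest when another library was left out, and −0.05 without saline replicate 1, LPS replicate 1 and LPS + GAS replicates 1 and 3. How much blood each piece held was not tested.

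The other lists with no member within 2-fold were epithelial miR-200, miR-183 with miR-96 and miR-182, and miR-10 with miR-196. MiR-429-3p of the miR-200 list had 2586, 3850 and 1290 reads in saline and 1721, 4400 and 1090 in LPS + GAS. It was highest in replicate 2 of both groups. MiR-183-5p showed the same order, with 841, 1221 and 651 reads against 677, 1878 and 407.

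MiR-10b-5p, from introns shared by transcripts of Hoxd3 and Hoxd4,, had 85, 57 and 32 reads in saline and 69, 186 and 126 in LPS + GAS. Its log2 fold change was 1.19 (95% interval 0.05 to 2.32, adjusted p = 0.998 by edgeR). MiR-10a-5p, which differs from it at 1 of 23 positions, had 152, 133 and 113 reads in saline and 163, 219 and 148 in LPS + GAS. Both were highest in LPS + GAS replicate 2. That library had the second lowest sum of all 9 for the Htr2c list. Its miR-204 and miR-211 sum, 11720 CPM, was above those of saline replicates 2 and 3, at 9045 and 10392 CPM.

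Imprinted miRNAs of the chromosome 12 domain, expressed from the maternal chromosome in large clusters in neurons, mostly had log2 fold changes slightly below 0. Of 78 tested members of the Rtl1-antisense and Mirg lists, 65 (83.3%) had a log2 fold change below 0, against 351 of all 628 (55.9%), and their median was −0.18 against −0.03. The clusters are each cut from shared transcripts, so the members are not independent. The median of the Rtl1-antisense list lay between −0.32 and −0.18 and that of the Mirg list between −0.21 and −0.04 over all alternatives. The Mirg value of −0.04 was that without saline replicate 3, beside the −0.03 of all miRNAs in the main fit. Without that library the Rtl1-antisense median was −0.20. As single miRNAs, 63 of the 78 (80.8%) were within 2-fold, 4 had an unadjusted p under 0.05 by edgeR, beside 3.34% of all miRNAs, and 0 were called, beside 0.159%.

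MiR-541-3p had 28.1 ± 8.71 CPM in saline and 14.2 ± 2.97 CPM in LPS + GAS, a log2 fold change of −0.98 (95% interval −1.59 to −0.37, adjusted p = 0.839 by edgeR). MiR-337-3p had 262, 400 and 272 against 166, 141 and 215, a log2 fold change of −0.80 (95% interval −1.41 to −0.18). Both were lower in every LPS + GAS library than in every saline library. Over the 78 members this was so for 11 and the opposite for 0, beside 4.78% and 2.55% of all miRNAs.

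MiR-1197-3p of the Mirg list stood at −1.04 with 25, 38 and 42 reads against 16, 11 and 23. MiR-3071-3p stood at −0.54. It is listed with the Rtl1-antisense miRNAs but lies on the minus strand, the strand of Rtl1, and is complementary to miR-136-5p over 20 bases. MiR-127-3p, the most abundant member and a repressor of Rtl1, had 203941, 256676 and 303942 reads in saline and 223512, 224475 and 191266 in LPS + GAS, with a log2 fold change of −0.23 (95% interval −0.67 to 0.21). MiR-434-3p went the other way at 0.42 (95% interval −0.40 to 1.25).

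The summed level of the 78 members overlapped between groups, with 53512, 55460 and 75923 CPM in saline and 53817, 59300 and 56554 CPM in LPS + GAS. Only saline replicate 3 stood above the LPS + GAS libraries.

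MiR-7b-3p had the lowest p after miR-21a-3p. It is the minor arm of the miR-7b hairpin, whose major arm miR-7b-5p binds the circular RNA Cdr1as. It had 478, 529 and 442 reads in saline, 866, 840 and 832 in LPS + GAS and 589, 851 and 559 in LPS. Saline and LPS + GAS libraries were well apart and each group was tight. The log2 fold change was 0.84 (95% interval 0.48 to 1.21, adjusted p = 0.149 by edgeR), below the fold threshold. DESeq2 gave it an adjusted p of 0.00103 with a log2 fold change of 0.90, also below that threshold. No other alternative gave an adjusted p under 0.05. By edgeR it was 0.0642 with at least 50 reads in 3 libraries and 0.997 with library totals alone. The log2 fold change ranged from 0.82 to 0.93 over all alternatives. MiR-7b-5p was within 2-fold at 0.10 (95% interval −0.44 to 0.63).

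Of the other miRNAs with an unadjusted p under 0.05, miR-322-3p was higher, with 64, 42 and 28 reads in saline, 91, 65 and 116 in LPS + GAS and 71, 99 and 146 in LPS. Its log2 fold change was 1.05 (95% interval 0.21 to 1.89). MiR-92a-1-5p, the minor arm of a hairpin in the proliferation-linked miR-17-92 cluster, had 4, 13 and 5 reads against 26, 21 and 10, a log2 fold change of 1.40. MiR-26a-1-3p stood at 0.62. All 3 had an adjusted p of 0.998 by edgeR.

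MiR-24-3p, a broadly expressed miRNA made from 2 loci, was the most abundant of those lower. It had 48678, 110594 and 83839 reads in saline and 59228, 38363 and 54447 in LPS + GAS, and saline replicate 1 lay within the LPS + GAS range. The log2 fold change was −0.64 (95% interval −1.25 to −0.04). The partners in its clusters had log2 fold changes of 0.19 for the miR-23 family (95% interval −0.26 to 0.63) and 0.14 for the miR-27 family (95% interval −0.24 to 0.52), both within 2-fold.

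MiR-3086-3p stood at −0.91 with 35, 37 and 34 reads in saline and 23, 18 and 14 in LPS + GAS, and all LPS + GAS libraries were below all saline libraries. MiR-1983 stood at −0.51 and miR-3572-3p at −0.88, with the same separation. None of these passed the threshold after adjustment.

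Of the miRNAs that the study singled out, miR-21a-3p is described above. The study reported miR-21a-3p as raised by LPS and reduced by GAS. In the deposited counts it had 57, 71 and 71 reads in LPS and 224, 154 and 105 in LPS + GAS, the opposite direction for GAS. In the study's own qRT-PCR, miR-21a-3p was not among the miRNAs whose changes matched its sequencing. MiR-107-3p, a relative of miR-103-3p that targets metabolic and cell cycle mRNAs, had 60, 45 and 59 reads in saline and 76, 61 and 62 in LPS + GAS. In CPM its groups did not overlap, but only by a small margin, with 5.97 in LPS + GAS replicate 3 over 5.95 in saline replicate 3. The difference was small, a log2 fold change of 0.30 with a wide interval of −1.19 to 1.79. The LPS libraries, which share the fit's estimate of the spread, had 32, 87 and 308 reads. MiR-297a-5p was within 2-fold at −0.22 (95% interval −0.70 to 0.26), and miR-297b-5p stood at −0.26 (95% interval −1.01 to 0.49). The study's name for this miRNA has no letter, so whether it meant a, b or c is not known. The one with c is given below, among the miRNAs nearly absent from some libraries.

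MiR-532-5p was level in the 6 libraries, with 11440, 13444 and 14360 reads in saline and 13660, 11361 and 12848 in LPS + GAS. The fit gave a log2 fold change of −0.03 with an interval of −3.69 to 3.64. The LPS libraries, which share the fit's estimate of the spread, had 29, 12498 and 8 reads. MiR-6395 had reads in 1 library of each group (43 in saline replicate 3 and 31 in LPS + GAS replicate 2) and was not tested.

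Several miRNAs were present in some libraries of a group and nearly absent from others. MiR-532-3p had 170, 225 and 2 reads in saline and 2, 0 and 98 in LPS + GAS. MiR-297c-5p, which may also be the miRNA that the study named, had 1, 646 and 0 against 589, 3 and 0. MiR-744-5p had 3015, 4295 and 37 against 3834, 3049 and 30, low in replicate 3 of both groups.

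MiR-669c-5p had 4, 297 and 252 against 274, 213 and 276, and miR-331-3p had 27, 50 and 53 against 1, 65 and 74. MiR-532-3p comes from an intron of Clcn5, and miR-297c-5p and miR-669c-5p from an intron of Sfmbt2. In those lists, 4 of 8 tested miRNAs from introns of Clcn5 and 19 of 36 from an intron of Sfmbt2 were within 2-fold, with median log2 fold changes of −0.24 and −0.05. For the miRNAs named here a log2 fold change describes which libraries lacked the reads. Their standard errors ran from 0.83 for miR-331-3p to 2.26 for miR-297c-5p, beside a median of 0.28 over all miRNAs.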

How the data were processed

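Small RNA of mouse hippocampus was sequenced on a BGISEQ-500 platform. The authors deposited 1 table with whole read counts per mature miRNA and library, which were used as deposited, and a second set of whole counts named exp, never above the first, whose origin the file header does not state and which served as an alternative. Per the submitters' processing notes the genome was GRCm38.p6. No source used here names the aligner, the counter, the miRBase release or the use of strand. The table's columns of the authors' averages and DESeq2 comparisons were not used. No library column was left unmapped.

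Counts of miRNAs that reached 10 reads in 3 or more of 9 libraries were scaled by TMM and fitted with edgeR 4.0.16 (R 4.3.3; glmQLFit and glmQLFTest, 3 groups, no block), two-sided, with Benjamini-Hochberg adjustment over 628 miRNAs. Intervals of 95% came from each fit's standard error and can differ slightly from the p of edgeR's test. Wholly above 0 were 10 intervals, against 9 miRNAs higher at an unadjusted p under 0.05. Seed families were sums of reads over rows with the same bases 2 to 8, identical mature sequences counted once. Arm ratios were log2((3p + 0.5)/(5p + 0.5)), fitted with limma 3.58.1. Scripts were tested on simulated data. With 3 libraries a group an exact permutation test cannot go below p = 0.1, so none was used. No 2 libraries of a group were duplicates, since their counts differed by far more than sampling noise.

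Replicate numbers were checked for pairing. Deviations of same-numbered saline and LPS + GAS libraries correlated at 0.216, 0.227 and 0.256, although no source names a shared litter, batch or day. Those of different number correlated at −0.364 to 0.111. Without the choroid plexus and ciliated lists the same-numbered values were 0.0218, 0.0678 and 0.307. The others were then −0.331 to 0.283, so 0.283 for saline replicate 2 with LPS + GAS replicate 1 exceeded the same-numbered values of replicates 1 and 2.

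The members and lists were chosen with earlier results of these data known. The miRNAs named were the called one, the next 15 by lowest p, the most abundant of each list, those the study singled out, the 5 seed families and arm ratios with the lowest p, and those whose median was 20 reads or more and that fell under 1/20 of it in a library. Other miRNAs given with values (miR-10b-5p, miR-34c-3p, miR-142a-3p, miR-223-3p, miR-144-3p and miR-448-3p among them) were chosen after their values were seen. Alternatives changed the scaling, filter, test, samples, block, limits and pseudocount, and left out each library in turn.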

Additional observations from a re-analysis of the deposited data

How the results depend on the processing

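MiR-21a-3p was called under every alternative run on single miRNAs, with 1 miRNA called in each, and 1 arm ratio was called under each alternative run on arm ratios, which did not include those of scaling, exp values, count tests and no filter. The number of miRNAs within 2-fold of saline, 405, was 342 to 496 under other scalings, filters and tests. It was 338 to 425 when a single library was left out, but 138 when the limit was 1.5-fold. The 496 came without a filter on low counts, where more miRNAs were tested. The 342 came with at least 50 reads in 3 libraries, where fewer were. LPS + GAS replicate 1 alone held 1046 miRNAs with a read, so the unfiltered share lay below the 64.5% of the main fit. With the replicate number as a block 411 miRNAs were within 2-fold. There 1 miRNA, 1 seed family and 1 arm ratio were called, so a block by number changed no call. In a setting chosen after seeing the data, without saline replicate 1, LPS replicate 1 and LPS + GAS replicates 1 and 3, a single LPS + GAS library remained, assumed to vary like the other groups. There 38 miRNAs were within 2-fold, 1 miRNA was called and 0 seed families were called by edgeR.

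Of single miRNAs, miR-297c-5p moved most, from −0.05 to 8.28 without saline replicate 2, the saline library that held its reads. Of list medians 31 of 544 values moved by more than the spread between replicates. For 16 miRNAs whose interval left out 0, 0 of 313 values changed sign. For 39 whose interval held 0, 131 of 775 did, in 25 miRNAs, so their direction is not determined. Miscounts between identical or antisense sequences could not be assessed. Below 100 CPM, 245 of 443 miRNAs had an interval within 2-fold, and what widened the other intervals was not tested.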

Other observations

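Minor arms, the less abundant arm of each of 220 precursors, were within 2-fold of saline for 130 (59.1%), against 159 of 207 major arms (76.8%). Of the 9 miRNAs higher at an unadjusted p under 0.05 by edgeR, 5 were minor arms, 1 was a major arm and 3 had no tested partner. Of the 12 lower these were 5, 2 and 5. Minor arms made up 220 and major arms 207 of the 628 miRNAs tested, and 3.34% of all 628 had such a p. Whether minor arms differ from the rest in this was not tested.

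Among tested miRNAs, 17 pairs were complementary over at least 18 bases. Some of these, such as the arms of miR-299a and of miR-486a, are arms of a single hairpin, and others lie on opposite strands of a locus. The miR-9b-3p and miR-9-5p pair was the most abundant, at a mean of 116040 and 21901 CPM over the saline and LPS + GAS libraries. Both were within 2-fold of saline.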
